A study of Mus musculus with 9 samples.

Results

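The Slc25 family comprises transport proteins found mostly in the inner mitochondrial membrane, and its transcripts were followed here in mouse round spermatids (RS), the haploid germ cells that follow meiosis. Members were set by a rule on names: every gene called Slc25a followed by a number, except Slc25a11, Slc25a12 and Slc25a13. The counts of a member had to add up to 10 or more across the 9 libraries. The family was chosen with earlier results of these data known. Of 44 genes with such a name, 43 passed the minimum, among 25128 genes that passed it in the whole table. The member left out, Slc25a34, had 2 counts in all, and Slc25a52 was not analysed here. Of the 43, 23 reached a mean normalized count of 100, and these are called well measured below.

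RS were sorted by flow cytometry from testes of adult C57Bl/6 mice labelled WT for genotype, in which Cre recombinase driven by the germ cell promoter Stra8 (Stra8-iCre) switches on the red fluorescent protein tdTomato (Stra8-Tom mice). The fluorescent reporter was carried by all 3 groups, and the gates used tdTomato brightness and forward scatter. The incubation lasted 24 h. Its medium held the solvent alone (vehicle, 0.15% DMSO), 24 mM oxamate, which inhibits lactate dehydrogenase, or 24 mM oxamate plus 0.3 mM octyl-L-2HG, an ester of L-2-hydroxyglutarate (L-2HG) that crosses membranes. There were 3 libraries per group, vehicle 1 to 3, oxamate 4 to 6 and both compounds 7 to 9, and no group received octyl-L-2HG without oxamate. The study's methods describe triplicate incubations, but whether these came from separate animals or sorts is not stated in the sources used here, so the p-values below measure the spread between these libraries, which may be technical.

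Carriers of this family share a fold of 3 repeated units and move nucleotides, phosphate, carboxylates, amino acids, cofactors and metal ions between the cytosol and the mitochondrial matrix. They set which substrates reach the citric acid cycle and how ATP leaves the organelle. Male germ cells use lactate as a fuel, and postmeiotic cells express testis-specific forms of several metabolic enzymes and carriers. Oxamate resembles pyruvate, and L-2HG is a reduced relative of 2-oxoglutarate, a substrate of several carboxylate carriers.

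Total counts per library lay between 32339533 and 39888396, and no pair of libraries within a group agreed within sampling noise (chi-square per degree of freedom between 2.1 and 23.3). Oxamate library 4 lay apart from oxamate libraries 5 and 6 in a principal component analysis, so counts without it are given below. All 12 round spermatid markers were detected, and their summed normalized count lay between 107201 and 111066 in vehicle, between 102449 and 103705 with oxamate and between 95827 and 96930 with both compounds. Of the 12, 4 were called lower with oxamate than with vehicle (Prm1, Prm2, Tnp1 and Tnp2, which encode sperm chromatin proteins), where 1.22% of all tested genes were. With both compounds, 5 were called lower than with oxamate (these 4 and Catsper3), where 8.06% of all tested genes were. Against vehicle, 7 were called lower with both compounds and 2 higher, where 10.6% and 7.48% of all tested genes were. The 6 spermatocyte markers summed to between 7918 and 8861 in vehicle, 7686 and 8188 with oxamate and 7181 and 7286 with both compounds, and 1 of them, Syce2 of the synaptonemal complex, was called lower with both compounds than with oxamate (-0.49, adjusted p = 3.92e-05) or vehicle (-0.47, adjusted p = 2.06e-05). The 5 spermatogonium markers summed to between 191 and 211 in vehicle, 237 and 249 with oxamate and 224 and 237 with both compounds, so that vehicle was lowest without overlap, and none of the 5 was called in a pairwise comparison. Markers of other testis cells were low. The 4 myoid markers summed to between 84.9 and 90.8 in vehicle, 99.3 and 109 with oxamate and 79.9 and 92.4 with both compounds, and the 3 tested of the 5 Leydig markers to between 29 and 38.6 in vehicle, 19.9 and 28.2 with oxamate and 31.2 and 40.4 with both compounds, with no call in either list. Sums were at most 6.81 for the 3 tested of the 5 Sertoli markers and 145 for macrophages, and none of the 6 erythroid markers reached 10 counts over the 9 libraries. Whether a change in cell mix had a part in any result was not tested, and in bulk RNA fewer cells of a type and less RNA per cell cannot be told apart.

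The promoters of 5 carriers described below are shown first, because CREM, a transcription factor of postmeiotic germ cells, binds cyclic AMP response elements (CRE). They belong to the carriers called higher with oxamate that had an entry, and to Slc25a36, which oxamate did not raise. The set is thus not a sample of the family. Crem itself had a normalized count of 13494 ± 747 (SD, n = 3) in vehicle. Each sequence is RefSeq's, from build GRCm38.p6, and runs from 250 bases before an annotated start to 50 bases after it, 5′ to 3′ in the direction of transcription. Capitals mark the CRE core, TGACG or its reverse complement CGTCA, and the full palindrome TGACGTCA where both overlap.
Slc25a30 promoter, chr14:75786988-75787287, minus strand: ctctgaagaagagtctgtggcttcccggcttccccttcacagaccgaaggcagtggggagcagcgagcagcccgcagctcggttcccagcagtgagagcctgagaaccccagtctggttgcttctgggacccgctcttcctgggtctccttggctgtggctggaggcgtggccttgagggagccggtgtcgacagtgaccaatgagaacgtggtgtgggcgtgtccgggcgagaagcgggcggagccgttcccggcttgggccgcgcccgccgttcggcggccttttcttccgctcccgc
Slc25a18 promoter, chr6:120773518-120773817, plus strand: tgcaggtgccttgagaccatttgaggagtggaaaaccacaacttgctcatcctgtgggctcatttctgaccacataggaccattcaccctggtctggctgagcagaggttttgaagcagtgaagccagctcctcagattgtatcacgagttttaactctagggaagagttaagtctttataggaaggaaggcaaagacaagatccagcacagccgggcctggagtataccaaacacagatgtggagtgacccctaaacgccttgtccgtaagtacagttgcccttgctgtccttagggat
Slc25a38 promoter, chr9:120110132-120110431, plus strand: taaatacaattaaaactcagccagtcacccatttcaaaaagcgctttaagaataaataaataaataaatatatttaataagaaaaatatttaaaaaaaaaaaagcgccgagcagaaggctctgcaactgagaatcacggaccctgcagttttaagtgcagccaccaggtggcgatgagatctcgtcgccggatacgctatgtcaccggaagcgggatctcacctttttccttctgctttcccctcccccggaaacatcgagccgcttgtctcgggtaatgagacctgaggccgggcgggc
Slc25a25 promoter, chr2:32424017-32424316, minus strand, the third of 3 annotated starts: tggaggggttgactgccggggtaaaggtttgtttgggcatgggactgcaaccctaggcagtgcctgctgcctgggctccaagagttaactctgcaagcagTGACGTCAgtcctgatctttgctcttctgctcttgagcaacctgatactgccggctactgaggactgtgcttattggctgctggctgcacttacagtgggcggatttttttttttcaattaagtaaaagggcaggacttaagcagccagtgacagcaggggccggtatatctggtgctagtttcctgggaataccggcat
Slc25a36 promoter, chr9:97110992-97111291, minus strand: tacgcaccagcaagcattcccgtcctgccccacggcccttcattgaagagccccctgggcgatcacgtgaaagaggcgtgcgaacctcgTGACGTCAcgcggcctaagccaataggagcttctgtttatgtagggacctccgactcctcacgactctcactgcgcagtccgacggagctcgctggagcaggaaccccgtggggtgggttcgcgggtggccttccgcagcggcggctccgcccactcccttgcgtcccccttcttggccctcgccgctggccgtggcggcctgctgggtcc
The full element was present in the windows shown for Slc25a25 and Slc25a36, the windows at the other 2 starts of Slc25a25 held neither form, and the windows of Slc25a30, Slc25a18 and Slc25a38 held neither form on either strand. Over the 42 windows of the 32 carriers with an entry, 2 held the full element (4.76%, against 1.79% of all 32851 windows of 300 bases) and 12 held the core (28.6%, against 20.8%). All carrier windows with the full element are among those shown. Of the other called carriers with an entry, Slc25a10 and Slc25a47 held neither form and Slc25a48 held the core only. The motif was chosen after the carriers' values were seen. A match here describes letters only and shows no binding. Slc25a44, Slc25a37 and Slc25a41 had no entry.

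Levels of different carriers were compared as counts per kilobase of merged exons, scaled so that all genes of a library sum to 1000000 (TPM). In vehicle, Slc25a39, a carrier required for mitochondrial glutathione import, stood highest at 750 ± 27.5 TPM (SD, n = 3). Slc25a2, the second ornithine carrier, followed at 258 ± 14.01 and Slc25a33, a carrier of pyrimidine nucleotides, at 199 ± 19.6. These first 3 ranks were separated from one another by more than their SDs. Slc25a54 at 76.8 ± 2.43 and Slc25a46, an outer-membrane member that acts in mitochondrial dynamics, at 75.4 ± 4.72 did not differ beyond their spread, and their order turned when the longest transcript was used as the length (65.5 and 75.1 TPM).

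Together these 5 genes made up 79.7% of the summed length-scaled level of the family in vehicle. Slc25a3, the phosphate carrier, came next at 53.3 ± 0.929 TPM. It was followed by the iron carrier Slc25a28 at 37.5 ± 4.19, the ADP/ATP carrier Slc25a31 at 34.6 ± 2.12 and the ATP-Mg/phosphate carrier Slc25a41 at 34.1 ± 1.89, and neighbours among these 3 did not differ beyond their spread. This order depends on the length used. With the longest transcript, Slc25a25 followed Slc25a3 at 44.5 TPM, and Slc25a28, Slc25a41, Slc25a10 and Slc25a31 stood at 30.3, 29.7, 29.1 and 27.8. With merged exons, 17 carriers reached 10 TPM, 14 lay from 1 to under 10, and 12 lay under 1.

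**Figure D1:**
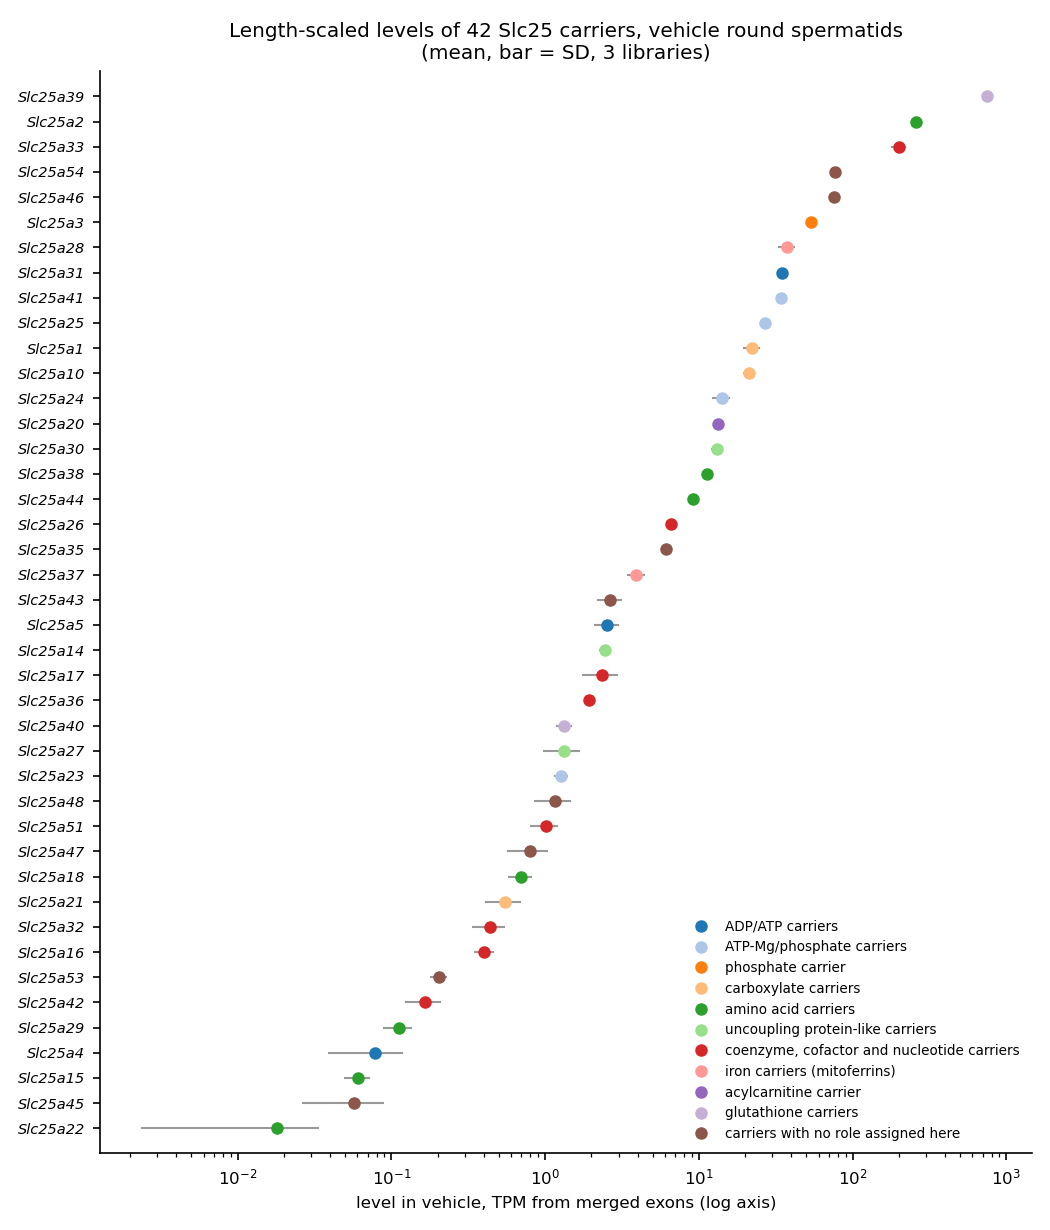
Levels of 42 of the 43 carriers in the 3 vehicle libraries, in TPM on a log axis, with the mean as a point coloured by role group and the SD as a bar. Slc25a39 at 750 stands above Slc25a2 at 258 and Slc25a33 at 199, and 12 carriers lie under 1.

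At the low end, 5 carriers had at most 5 counts in every library: Slc25a4, Slc25a22, Slc25a15, Slc25a29 and Slc25a45. Slc25a4, the ADP/ATP carrier of heart and muscle, had 3, 3 and 1 counts in vehicle, 1, 3 and 1 with oxamate and 1, 1 and 0 with both compounds. The glutamate carrier Slc25a22 had 0, 2 and 2 counts in vehicle, 1 in each oxamate library, and 1, 3 and 0 with both compounds. No fold is given for these genes, because their levels were near or under what 3 counts represent, and a difference between groups was not detectable at this depth.

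The 43 carriers lie on 19 chromosomes. Of these, 4 are X-linked (Slc25a43, Slc25a5, Slc25a14 and Slc25a53), with vehicle levels from 0.203 to 2.65 TPM and a median of 2.49, against a median of 6.12 for the 39 autosomal carriers. Over all tested genes with a length, the medians were 0.987 TPM on the X (854 genes) and 1.88 on the autosomes (23925 genes).

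The summed level of the family was 1705 ± 62.1 TPM in vehicle, 1702 ± 139 with oxamate and 1623 ± 64.7 with both compounds (SD, n = 3 each). An exact two-sided permutation test over the libraries gave p = 0.9 for oxamate against vehicle, p = 0.5 for both compounds against oxamate and p = 0.3 for both compounds against vehicle, where 3 against 3 libraries cannot go below 0.1. The library sums overlapped between groups, but a test with this floor cannot decide whether the sums differ. Slc25a39 alone made up 44% ± 0.458 of the sum in vehicle (SD, n = 3), so the sum mostly follows a few carriers. The results below concern single carriers.

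Genes were tested with edgeR's quasi-likelihood test on the counts, all 9 libraries in 1 fit, and called at a Benjamini-Hochberg adjusted p under 0.05 over all 25128 genes. Values per library are normalized counts, that is, counts divided by the library's relative size after TMM scaling, and a log2 fold change is given with its standard error (SE). Of the 43 carriers, 11 (25.6%) differed among the 3 groups, where 19.8% of all tested genes did. Among the 23 well-measured carriers, 8 differed, where 33.5% of genes with a mean of at least 100 did. The share of carriers called was thus near that of other genes on both scales. Without oxamate library 4, 15 carriers were called, the 11 among them, and without vehicle library 2 the count was 7.

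With oxamate against vehicle, 5 carriers were called higher (11.6% of 43, background 3.97%) and 0 lower (background 1.22%). At an unadjusted p under 0.05, 7 were higher and 1 was lower, where 10.2% and 7.12% of all tested genes were, and DESeq2 also called 5 higher and 0 lower. Of the 5, 4 were among the 23 well-measured carriers, where 8.07% of genes with such a mean were called higher, and the counts were 5 and 0 without oxamate library 4 as well. All 3 oxamate libraries lay above all 3 vehicle libraries for 8 carriers and below them for 0, where 11.9% and 9.52% of all genes did so. Among the 5, 3 are amino acid carriers (Slc25a44, Slc25a18 and Slc25a38), 1 is an uncoupling protein-like carrier (Slc25a30) and 1 is an ATP-Mg/phosphate carrier (Slc25a25).

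With both compounds against oxamate alone, 0 carriers were called higher (background 3.18%) and 4 lower (9.3% of 43, background 8.06%). At an unadjusted p under 0.05, 2 were higher and 8 were lower, where 8.5% and 15.1% of all tested genes were, and DESeq2 called 0 higher and 4 lower. Without oxamate library 4, 2 were called higher and 4 lower, and without oxamate library 5, library 7 or library 8 the count of lower carriers was 2. Of the 23 well-measured carriers, 3 were called lower, where 12.7% of such genes were. Libraries with both compounds lay wholly above the oxamate libraries for 2 carriers (background 11.5%) and wholly below them for 10 (background 16.6%).

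With both compounds against vehicle, 5 carriers were called higher (background 7.48%) and 3 lower (background 10.6%). All 5 of those higher were well measured, where 16% of well-measured genes were higher, and 2 of those lower were, where 13.6% were lower. Without oxamate library 4 the counts were 7 and 4, without vehicle library 2, library 8 or library 9 the count of higher carriers was 3, and without library 9 the count of lower carriers was 5. The libraries with both compounds lay wholly above vehicle for 8 carriers (background 16.4%) and wholly below it for 5 (background 19.7%). The 3 comparisons share libraries, so their calls are not independent of each other.

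Over the 23 well-measured carriers, the median log2 fold change was 0.06 for oxamate against vehicle, -0.06 for both compounds against oxamate and 0.06 for both compounds against vehicle. The medians over the 10730 genes with such a mean were 0.0098, 0.0098 and 0.03. The median size of the change, regardless of sign, was 0.09 for carriers and 0.10 for genes with oxamate against vehicle, 0.14 for each with both compounds against oxamate, and 0.15 and 0.16 with both compounds against vehicle. Scaling by total counts instead of TMM put the median of all tested genes at -0.11 for both compounds against vehicle, where TMM put it at -0.05.

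**Figure D2:**
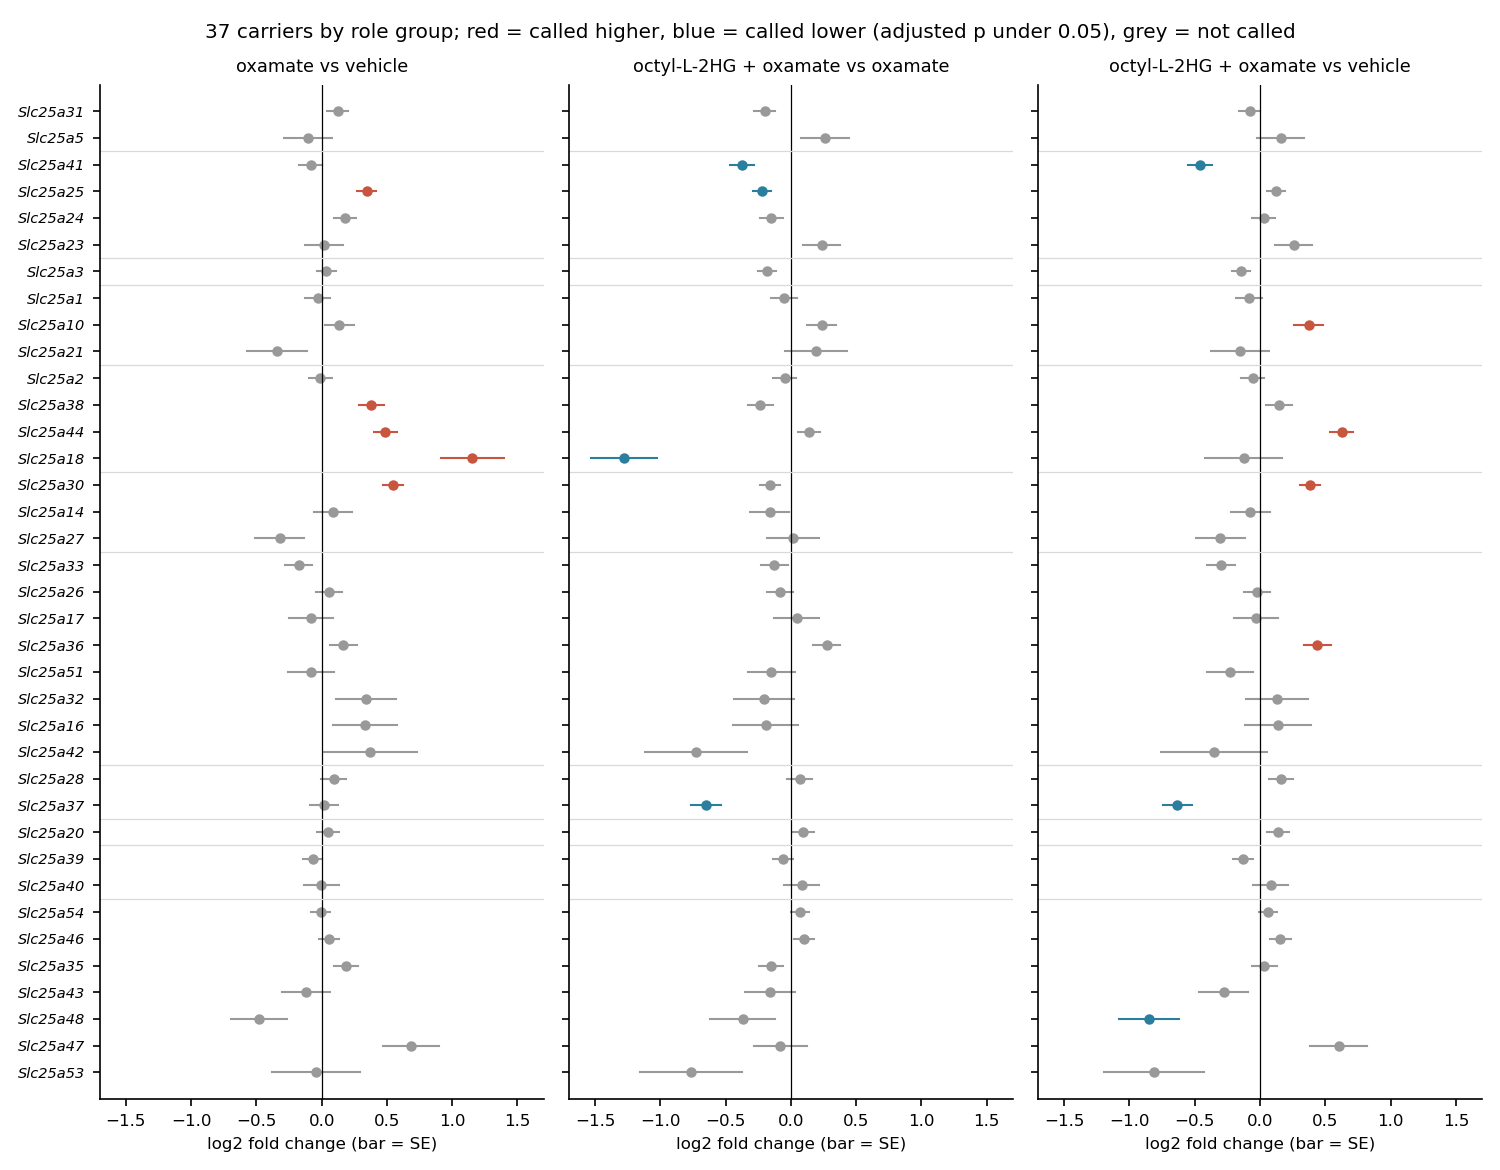
Log2 fold change with its SE (bar) of 37 of the carriers with over 5 counts in a library, in the 3 comparisons, grouped by role and ordered within a group by level in vehicle. Red marks carriers called higher and blue those called lower, with the 5 called higher by oxamate on the left and the 4 called lower by both compounds against oxamate in the middle, where Slc25a18 has the largest change (-1.28).

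Amino acid carriers held 3 of the 5 calls with oxamate, among 7 tested members. Of all tested genes 3.97% were called higher, and 8.07% of genes with a mean of at least 100. The role groups were chosen with earlier results known, so this count describes the list only. Slc25a44 carries branched-chain amino acids into mitochondria. Normalized counts of Slc25a44 were 386, 392 and 382 in vehicle, 597, 515 and 514 with oxamate, and 631, 578 and 579 with both compounds. The vehicle libraries were all below the other 6, and the oxamate libraries overlapped those with both compounds. The log2 fold change was 0.49 (SE 0.09, adjusted p = 0.00123) for oxamate against vehicle and 0.62 (SE 0.09, adjusted p = 2.34e-05) for both compounds against vehicle by edgeR's quasi-likelihood test. Both compounds against oxamate gave 0.14 (adjusted p = 0.364), and both calls held without any 1 of the 9 libraries.

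Slc25a18 encodes the second mitochondrial glutamate carrier, which brings glutamate in with a proton. Normalized counts of Slc25a18 were 15.3, 13.5 and 18.4 in vehicle, 33.1, 36.1 and 36.4 with oxamate, and 15.6, 9.16 and 17.9 with both compounds. The 3 oxamate libraries stood above the other 6, which overlapped, on raw counts of 8 to 37 per library. The fold with oxamate was 2.24 (log2 1.15, SE 0.24, adjusted p = 0.00516). Both compounds against oxamate gave a log2 fold change of -1.28 (SE 0.25, adjusted p = 0.0021), and both compounds against vehicle gave -0.13 (adjusted p = 0.833). Each of the 2 calls held without any 1 of the 9 libraries. The gene overlaps Atp6v1e1, a proton pump subunit on the opposite strand, whose counts were 195 ± 1.97, 176 ± 22.7 and 198 ± 15.1 (SD, n = 3 each) in vehicle, oxamate and both compounds, and whether reads were counted by strand is not stated in the sources used here.

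Slc25a38 imports glycine for the first step of haem synthesis. Normalized counts of Slc25a38 were 379, 343 and 368 in vehicle, 539, 453 and 425 with oxamate, and 385, 403 and 416 with both compounds. Each group was separate from the other 2, with vehicle lowest and oxamate highest, and library 4 was the highest of the oxamate group. Oxamate raised it by 0.38 (SE 0.10, adjusted p = 0.0195), while both compounds differed from oxamate by -0.24 (adjusted p = 0.124) and from vehicle by 0.15 (adjusted p = 0.343). The call was lost without vehicle library 2 (adjusted p = 0.121) or 3 (adjusted p = 0.0673), and with only the compared groups in the fit (adjusted p = 0.0676).

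Slc25a2, the other abundant member of this group, showed no call. Normalized counts of Slc25a2 were 4515, 4041 and 3950 in vehicle, 4847, 3884 and 3695 with oxamate, and 3747, 4065 and 4209 with both compounds. The 3 groups overlapped, and the log2 difference of oxamate from vehicle was -0.01 with a 95% interval (from its SE) of -0.18 to 0.16. Slc25a22, Slc25a15 and Slc25a29 are among the 5 carriers near the floor described above.

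The uncoupling protein-like carriers comprise Slc25a30, Slc25a14 and Slc25a27, which resemble the uncoupling proteins in sequence. Normalized counts of Slc25a30, also known as kidney mitochondrial carrier protein, were 723, 655 and 754 in vehicle, 990, 1055 and 1066 with oxamate, and 900, 958 and 925 with both compounds. The 3 groups did not overlap, and both compounds stood between vehicle and oxamate. The log2 fold change was 0.54 for oxamate against vehicle (SE 0.08, adjusted p = 0.000156), the largest rise with oxamate among the 23 well-measured carriers. Both compounds against vehicle gave 0.38 (adjusted p = 0.00118) and against oxamate -0.16 (adjusted p = 0.207), and both calls held without any 1 library. Slc25a14 and Slc25a27 were not called in any test, with mean normalized counts of 68.3 and 53.1.

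**Figure D3:**
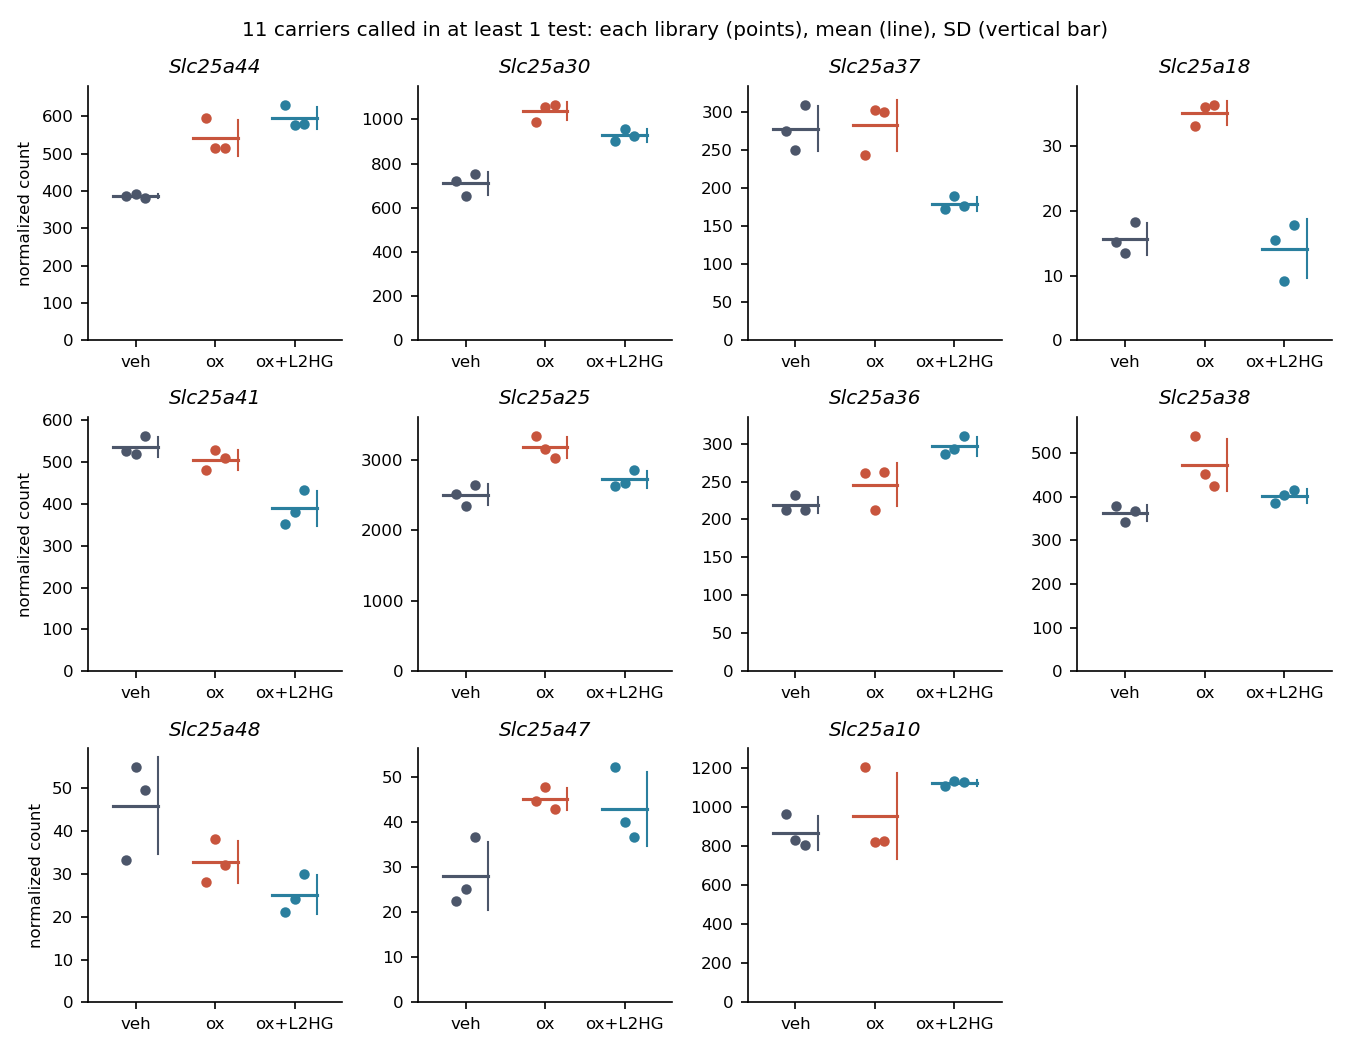
Normalized counts of 11 of the carriers called in at least 1 test, with each library as a point, the group mean as a line and the SD as a vertical bar, each axis starting at 0. Slc25a18 is highest in the 3 oxamate libraries, Slc25a44 and Slc25a30 are above vehicle in both treated groups, and Slc25a37 and Slc25a41 are lowest in the 3 libraries with both compounds.

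The ATP-Mg/phosphate carriers exchange ATP-Mg for phosphate across the inner membrane and so set the adenine nucleotide pool of the matrix. Calcium regulates Slc25a23, Slc25a24 and Slc25a25, whereas Slc25a41 lacks the calcium-binding part. Normalized counts of Slc25a25 were 2514, 2343 and 2639 in vehicle, 3336, 3150 and 3027 with oxamate, and 2626, 2670 and 2859 with both compounds. The oxamate libraries stood above the other 6, which overlapped. Oxamate raised Slc25a25 by 0.34 (SE 0.07, adjusted p = 0.00415), a call that held without any 1 library.

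Both compounds against oxamate gave -0.22 for Slc25a25 (SE 0.07, adjusted p = 0.0427). This call was lost without vehicle library 3, without oxamate library 5 and without any library of both compounds, with adjusted p between 0.0601 and 0.172. It was also lost with DESeq2's size factors, with no filter on counts and with only the compared groups in the fit. Both compounds against vehicle gave 0.12 (adjusted p = 0.258). Slc25a25 overlaps Naif1, a nuclear apoptosis-related gene on the opposite strand, which moved with it: Naif1 had 2429 ± 103, 3418 ± 187 and 3113 ± 212 normalized counts in the 3 groups (SD, n = 3 each), with a log2 rise of 0.49 for oxamate against vehicle (adjusted p = 0.000185) and -0.14 for both compounds against oxamate (adjusted p = 0.262). Its part in the Slc25a25 result was not tested.

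Slc25a41 was called in both comparisons of the group with both compounds. Normalized counts of Slc25a41 were 525, 518 and 562 in vehicle, 480, 527 and 508 with oxamate, and 352, 381 and 432 with both compounds. Those with both compounds were below all the others, and vehicle and oxamate overlapped. The log2 fold change was -0.46 for both compounds against vehicle (SE 0.09, adjusted p = 0.000932) and -0.37 against oxamate (SE 0.09, adjusted p = 0.00961), while oxamate against vehicle gave -0.08 (adjusted p = 0.697). The difference from vehicle held without any 1 library, and the difference from oxamate was lost without oxamate library 5, library 7 or library 8, with adjusted p between 0.0554 and 0.0773.

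The shares of Slc25a41 and Slc25a25 in this group did not overlap between vehicle and either treated group. Of the length-scaled level of its 4 members, Slc25a41 made up 44.7% ± 0.659 in vehicle, 38.5% ± 1.53 with oxamate and 35.4% ± 1.498 with both compounds (SD, n = 3 each). Slc25a25 made up 35.3% ± 0.888, 41.0% ± 1.99 and 42% ± 0.781. The exact permutation test gave p = 0.1, the smallest possible, for both shares in both comparisons with vehicle, and p = 0.2 and p = 0.4 for both compounds against oxamate. Which of the 2 is more abundant depends on the length used: with the longest transcript Slc25a25 made up 51.1% in vehicle and Slc25a41 34.1%. Slc25a23 and Slc25a24 were not called, with log2 differences between -0.15 and 0.26.

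Mitoferrins bring iron into mitochondria, where it enters iron-sulphur clusters and haem. Slc25a37, mitoferrin 1, is best known in developing red cells, and Slc25a28, mitoferrin 2, is the more widely expressed form. Normalized counts of Slc25a37 were 275, 251 and 310 in vehicle, 244, 304 and 300 with oxamate, and 173, 190 and 177 with both compounds. All 3 with both compounds lay below the other 6, which overlapped. The log2 fold change was -0.65 against oxamate (SE 0.11, adjusted p = 0.000691) and -0.63 against vehicle (SE 0.11, adjusted p = 0.000366), the largest falls among the 23 well-measured carriers in both comparisons, and both held without any 1 library. Oxamate against vehicle gave 0.02 (adjusted p = 0.965).

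Slc25a28 was not called, with log2 differences of 0.09, 0.07 and 0.16 in the 3 comparisons. Slc25a37 accordingly made up 9.53% ± 1.362 of the mitoferrin level in vehicle, 9.22% ± 2.06 with oxamate and 5.69% ± 0.298 with both compounds (SD, n = 3 each). The exact permutation p was 0.1, the smallest possible, for both compounds against either other group, and 0.8 for oxamate against vehicle.

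**Figure D4:**
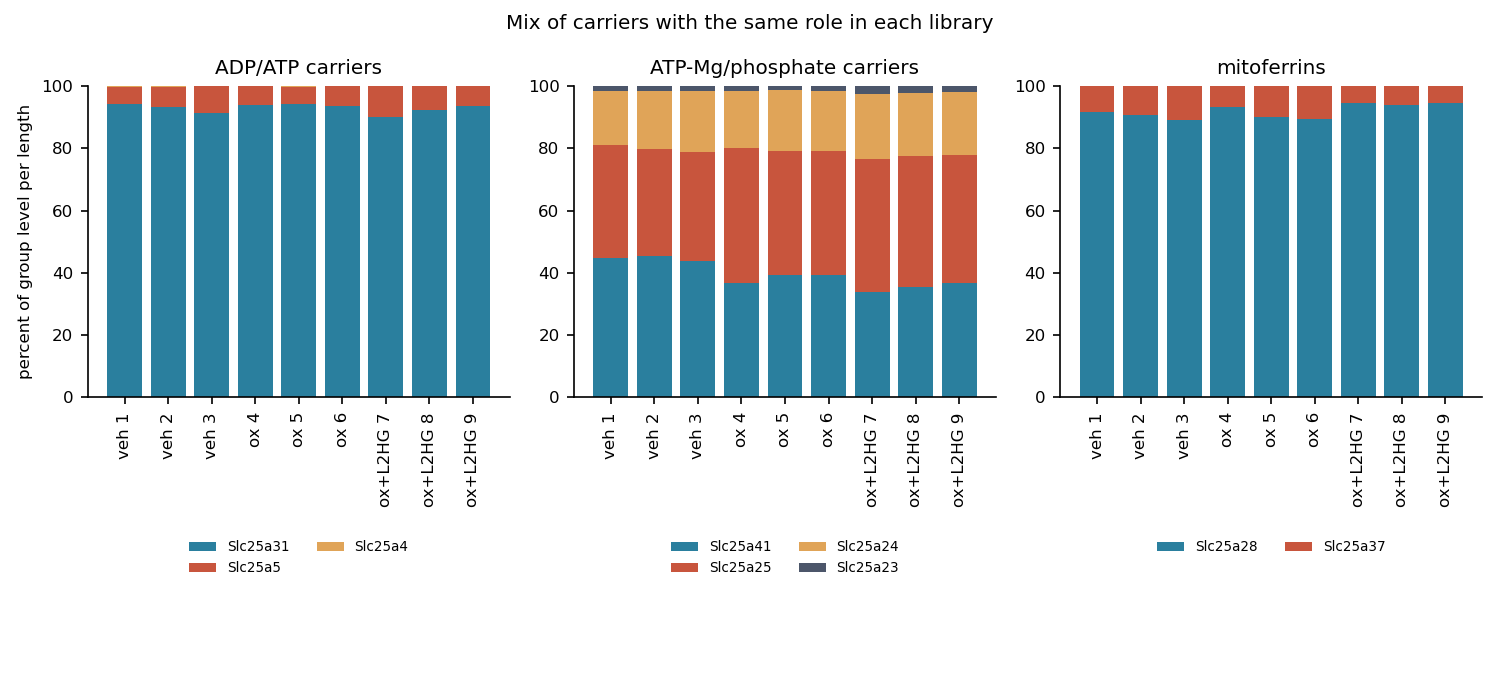
Share of each member in the length-scaled level of the ADP/ATP carriers, the ATP-Mg/phosphate carriers and the mitoferrins, in percent, 1 bar per library. Slc25a37 takes 5.45% to 6.02% of the mitoferrins in the 3 libraries with both compounds and 6.87% to 10.9% in the other 6, and Slc25a41 takes the largest share of its group in the 3 vehicle libraries.

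The ADP/ATP carriers exchange matrix ATP for cytosolic ADP. Slc25a31, the testis form that male meiosis requires, made up 93.0% ± 1.34 of the length-scaled level of Slc25a4, Slc25a5 and Slc25a31 in vehicle, 94.0% ± 0.353 with oxamate and 91.9% ± 1.84 with both compounds (SD, n = 3 each). Normalized counts of Slc25a31 were 907, 903 and 799 in vehicle, 946, 995 and 901 with oxamate, and 766, 840 and 864 with both compounds. Libraries with both compounds were below the oxamate libraries without overlap, but the difference of -0.20 did not pass the test (adjusted p = 0.118, 95% interval -0.36 to -0.04 before adjustment), and vehicle overlapped both. Slc25a5, an X-linked form found in most tissues, had 42.2, 48.2 and 57.0 normalized counts in vehicle, 46.7, 43.9 and 46.4 with oxamate, and 65.7, 53.8 and 46.1 with both compounds, with no call and with overlapping groups.

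Slc25a3, the phosphate carrier, supplies the matrix with phosphate for ATP synthesis. Normalized counts of Slc25a3 were 3633, 3434 and 3405 in vehicle, 3849, 3447 and 3443 with oxamate, and 2989, 3107 and 3354 with both compounds. With both compounds the counts were the lowest 3 of the 9, but neither -0.18 against oxamate (adjusted p = 0.0978) nor -0.15 against vehicle (adjusted p = 0.159) passed the test. Both passed with total counts as the scaling (adjusted p = 0.0312 and 0.0336) and when only genes with a mean of at least 100 were tested (adjusted p = 0.0391 and 0.0482).

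Of the 3 carboxylate carriers, Slc25a10, which exchanges malate and succinate for phosphate, was called in 1 comparison. Normalized counts of Slc25a10 were 965, 831 and 805 in vehicle, 1205, 822 and 827 with oxamate, and 1105, 1133 and 1129 with both compounds. The libraries with both compounds lay above vehicle, whereas oxamate library 4 lay above all others and oxamate libraries 5 and 6 lay within vehicle's range. Both compounds against vehicle gave 0.37 (SE 0.11, adjusted p = 0.0231), a call kept in 4 of the 9 fits that left out a library and lost without vehicle library 2 or 3 and without any library of both compounds, with adjusted p between 0.074 and 0.107.

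For Slc25a10, both compounds against oxamate gave 0.24 (adjusted p = 0.199) with all libraries, and this passed without library 4 (0.45, adjusted p = 5.065e-05) and with no filter on counts (0.28, adjusted p = 0.0153). Slc25a1, which exports citrate, was not called in any test, with log2 differences of -0.03, -0.06 and -0.09 in the 3 comparisons. Slc25a21, which carries 2-oxoadipate and 2-oxoglutarate, had 36.9, 22.2 and 35.9 normalized counts in vehicle, 25.3, 23.4 and 26.5 with oxamate, and 31.2, 28.6 and 26.3 with both compounds. No test called it, and vehicle libraries alone covered the range of the other 6.

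Among the carriers of coenzymes, cofactors and nucleotides, Slc25a36, which carries pyrimidine nucleotides, was called higher with both compounds than with vehicle. Normalized counts of Slc25a36 were 213, 232 and 212 in vehicle, 262, 213 and 263 with oxamate, and 286, 293 and 310 with both compounds. Counts with both compounds were the highest 3, and vehicle and oxamate overlapped. The log2 fold change was 0.44 against vehicle (SE 0.10, adjusted p = 0.00406), which held without any 1 library, and 0.27 against oxamate (adjusted p = 0.0914). The latter passed without library 4 (0.33, adjusted p = 0.028) and with no filter on counts (0.32, adjusted p = 0.0458).

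Slc25a33, which also carries pyrimidine nucleotides, had 4960, 4403 and 3934 normalized counts in vehicle, 4649, 3744 and 3374 with oxamate, and 3154, 3575 and 4056 with both compounds. Its groups overlapped, and both compounds against vehicle gave -0.30 (SE 0.11, adjusted p = 0.0537). That difference passed in 7 of the alternatives, with adjusted p between 0.00704 and 0.0495 in these.

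Slc25a39, the most abundant carrier, had 25896, 23458 and 23804 normalized counts in vehicle, 26426, 22360 and 20900 with oxamate, and 21810, 22504 and 22481 with both compounds. Libraries with both compounds lay below the vehicle libraries without overlap, and the oxamate libraries overlapped each of these groups. Slc25a39 was not called in any test. Both compounds against vehicle gave -0.13 (adjusted p = 0.25), with a 95% interval from -0.28 to 0.01. Slc25a39 made up 99.8% of the length-scaled level that it and its paralog Slc25a40 held together in each of the 3 groups, and Slc25a40 was not called.

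Among the 8 tested carriers given no role here, Slc25a48 and Slc25a47 passed a test. Normalized counts of Slc25a48 were 33.3, 55.0 and 49.6 in vehicle, 28.2, 38.1 and 32 with oxamate, and 21.2, 24.0 and 30.1 with both compounds. Counts with both compounds lay below vehicle, by -0.85 on the log2 scale (SE 0.23, adjusted p = 0.0115), a call lost without vehicle library 2 or 3 or without library 7, with adjusted p between 0.0567 and 0.0706. Slc25a47 differed among the 3 groups (adjusted p = 0.0466) but in no pair, with 22.5, 25.1 and 36.8 normalized counts in vehicle, 44.8, 47.8 and 43.04 with oxamate, and 52.3, 40.1 and 36.7 with both compounds. Its oxamate libraries lay above vehicle (0.69, adjusted p = 0.0686), and this passed with no filter on counts (adjusted p = 0.0472) and without vehicle library 3 (adjusted p = 0.0313). Both compounds against vehicle gave 0.60 (adjusted p = 0.0597), which passed in 5 alternatives, with adjusted p between 0.0188 and 0.0474 in these.

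Slc25a54 and Slc25a46, both abundant, were not called in any test, with log2 differences between -0.01 and 0.16. For Slc25a46 the libraries with both compounds, 5548, 5406 and 5165, lay above the vehicle libraries, 4602, 5071 and 4788 (0.16, adjusted p = 0.178). This passed without library 4 (adjusted p = 0.0279), with no filter on counts (adjusted p = 0.0449) and with only the compared groups in the fit (adjusted p = 0.0307). A further 16 carriers with over 5 counts in a library had log2 differences between -0.32 and 0.37 for oxamate against vehicle, between -0.77 and 0.24 for both compounds against oxamate and between -0.81 and 0.26 for both compounds against vehicle. None of them was called in any test, with a smallest adjusted p of 0.158 over the pairwise comparisons.

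Among genes that reached a mean of 100, fold changes ran with transcript length. Across the 23 well-measured carriers, Spearman's rho between merged exon length and log2 fold change was 0.36 for oxamate against vehicle, 0.18 for both compounds against oxamate and 0.35 for both compounds against vehicle. Across 10711 genes with such a mean and a length it was 0.31, 0.17 and 0.35. These are correlations across genes of the same libraries, which are not independent replicates, and the part of length in the carriers' calls was not tested. The 5 carriers raised by oxamate had merged exon lengths from 1911 to 7862 bases, against medians of 3677 for the carriers and 2947 for all tested genes.

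Lists of related genes were followed beside the carriers. Carriers reach the inner membrane through the outer-membrane TOM complex and the TIM22 insertase with its small chaperones. Of 15 tested genes of this route, Tomm40, the channel of the TOM complex, was called higher with oxamate (0.38, adjusted p = 0.0356) and with both compounds (0.44, adjusted p = 0.00492) than with vehicle. Tomm70a, the receptor that recognises carrier precursors, was higher with both compounds than with oxamate (0.20, adjusted p = 0.0442), and the small subunit Tomm7 was lower with both compounds than with vehicle (-0.19, adjusted p = 0.0456). The oxamate call of Tomm40 was lost with only the compared groups in the fit and without any 1 library other than oxamate libraries 5 and 6, with adjusted p between 0.0617 and 0.155, and its log2 fold change was 0.22 without library 4. The call of Tomm70a was lost with total counts as the scaling and without library 2, 4, 5, 7, 8 or 9, with adjusted p between 0.0512 and 0.14. The call of Tomm7 was lost with DESeq2's size factors, with no filter on counts and without any 1 library other than oxamate libraries 4 and 6, with adjusted p between 0.0659 and 0.257.

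Of 8 tested regulators of mitochondrial genes, Tfam, which packages and transcribes mitochondrial DNA, was lower with oxamate (-0.37, adjusted p = 0.0129) and with both compounds (-0.64, adjusted p = 2.32e-05) than with vehicle. The nuclear receptor Esrra was higher with both compounds than with oxamate (0.36, adjusted p = 0.0484) or vehicle (0.55, adjusted p = 0.00189). The coactivator Ppargc1b was lower with both compounds than with oxamate (-0.65, adjusted p = 0.0214), and Nrf1, a transcription factor for respiratory genes, was lower with both compounds than with vehicle (-0.37, adjusted p = 0.00313). The oxamate call of Tfam was lost without vehicle library 2 (adjusted p = 0.0817) and with only the compared groups in the fit (adjusted p = 0.0519). Between both compounds and oxamate, the call of Ppargc1b was lost with DESeq2 and without library 5, 6, 7, 8 or 9, with adjusted p between 0.0531 and 0.117. That of Esrra was lost there without library 2, 3, 5, 6, 7, 8 or 9, with total counts as the scaling and when only genes with a mean of at least 100 were tested, with adjusted p between 0.0551 and 0.232. Against vehicle, the calls of Tomm40, Tfam, Esrra and Nrf1 with both compounds held in all alternatives run. None of the 5 tested relatives that carry other names, Ucp1, Ucp2, Ucp3, Mtch1 and Mtch2, was called in any test. Mtch2, an outer-membrane relative, stood at 216 TPM in vehicle, within 1 SD of Slc25a33.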

How the data were processed

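RNA of sorted round spermatids was sequenced from poly(A) libraries of a stranded kit, in 3 libraries per group. Per the methods and the labels, the authors trimmed reads (cutadapt 2.10), aligned them with TopHat2 2.1.1 to the mouse genome and used htseq-count (HTSeq 2.01) with Ensembl gene models for counting. The strand setting of the counting is not given in the sources used here, so reads of overlapping or antisense genes may be assigned to either gene, and reads of near-identical copies may be lost. The authors deposited these counts without normalization, and beside them a normalized signal, the count divided by the library's size factor from DESeq2 1.36.0, which was not needed here. No column of values went unused otherwise, and no row that names no gene entered the fit.

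Of 55414 listed genes, 6250 (11.3%) have blank values and 25128 have at least 10 summed counts, the minimum used here. These were fitted with edgeR 4.0.16 in R 4.3.3 (TMM, quasi-likelihood, robust, group as the only term, all 9 libraries), with Benjamini-Hochberg adjustment and a threshold of 0.05. The fit was tested on simulated data. Groups came from the labels. Levels between genes used merged exon lengths of an annotation of build GRCm38, not the authors' build, matched by gene identifier for all 43 carriers and 99.6% of tested genes. Alternatives were DESeq2 1.42.0, DESeq2's size factors, total counts, other filters, an adjusted p under 0.01, fits of only the compared groups and each library left out, with the longest transcript as length added after seeing the data. Counts cover counting error only and PCR copies are not told apart.

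The carriers, their role groups and the companion and marker lists were chosen with earlier results of these data known. A carrier that the rule below covers enters the counts and is not reported here. Named are carriers called in any test, all ADP/ATP, carboxylate, phosphate and both glutamate carriers, the 5 highest in vehicle, and the largest rise and fall per comparison among carriers with a mean of at least 100. The other carriers appear by range and role group. Slc25a15, Slc25a29, Slc25a45, Slc25a28, Slc25a40, Slc25a14, Slc25a27, Slc25a23, Slc25a24, Slc25a43 and Slc25a53 fall outside that rule and are named only as members of a small group.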

Additional observations from a re-analysis of the deposited data

How the results depend on the processing

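The count of carriers that differed among the 3 groups fell from 11 to 6 at an adjusted p under 0.01, and lay between 7 and 15 when 1 library was left out. Of the carriers called with both compounds against vehicle, 3 were higher at an adjusted p under 0.01, and 5 were lower with total counts as the scaling. With no filter on counts, 2 were higher with both compounds than with oxamate. Leaving out 1 library gave between 0 and 2 carriers higher and between 2 and 4 lower for both compounds against oxamate, and between 3 and 7 higher and between 2 and 5 lower for both compounds against vehicle. Over the lists of related genes, the count called with oxamate against vehicle (2) was 0 at an adjusted p under 0.01 and 0 with only the compared groups in the fit, and that with both compounds against oxamate (3) was 0 at an adjusted p under 0.01. Leaving out 1 library gave between 0 and 3 in each of these comparisons. With both compounds against vehicle (5) it lay between 4 and 6 over the alternatives. The cause of these changes was not tested, beyond the fewer samples or the stricter threshold of the alternative.

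With the longest transcript as the length, the summed vehicle level was 1865 TPM. Slc25a31 then made up 90.9%, 92.2% and 89.5% of the ADP/ATP carriers in vehicle, oxamate and both compounds. Slc25a25 made up 51.1%, 57.1% and 58.1% of the ATP-Mg/phosphate carriers, and Slc25a41 34.1%, 28.4% and 25.8%.

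Single carriers that changed sign were uncalled log2 differences near 0. When 1 library was left out, the difference of oxamate from vehicle lay between -0.13 and 0.042 for Slc25a1, between -0.14 and 0.067 for Slc25a2, between -0.051 and 0.032 for Slc25a54, between -0.050 and 0.12 for Slc25a37, between -0.21 and 0.011 for Slc25a5, between -0.17 and 0.0004 for Slc25a39, between -0.073 and 0.23 for Slc25a10 and between -0.019 and 0.067 for Slc25a3. For both compounds against oxamate it lay between -0.13 and 0.035 for Slc25a1, between -0.13 and 0.042 for Slc25a39, between -0.22 and 0.015 for Slc25a33, between -0.12 and 0.081 for Slc25a2 and between -0.24 and 0.032 for Slc25a47. For both compounds against vehicle it lay between -0.093 and 0.0050 for Slc25a2 and between -0.34 and 0.093 for Slc25a18, and Slc25a54 gave -0.0014 with total counts as the scaling. No other sign change occurred among 1107 values of 66 single differences under 17 alternatives. Depth limits the 5 carriers with at most 5 counts in every library.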
